A study of Mus musculus with 30 samples.

Results

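RNA of 9 growth factor receptor genes is described here across the cell cycle of mouse myoblasts: Fgfr1, Fgfr2 and Fgfr4 for fibroblast growth factors, Met for hepatocyte growth factor, Pdgfra and Pdgfrb for platelet-derived growth factors, Egfr for epidermal growth factor and its relatives, and Igf1r and Insr for insulin-like growth factors and insulin. They were taken by symbol, 9 of the 46078 genes in the deposited table of fragment counts, and all 9 were found. C2C12 is an established line of mouse muscle precursor cells. All cells came from the growing state in low-glucose medium with 20% fetal bovine serum, spent 15 minutes in suspension with Hoechst, a dye that binds DNA, and were then separated by a cell sorter into fractions of G1, S and G2/M cells. RNA-seq of the fractions gave 6 columns of counts, 2 per phase, and the labels name no genetic change or further treatment in any of them. The 24 ChIP-seq samples of the series are not analysed here.

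Receptor tyrosine kinases are membrane proteins that bind a growth factor outside the cell, pair, phosphorylate each other and recruit adaptors that start the Ras-MAPK and PI3K-AKT cascades. In muscle precursors, fibroblast and hepatocyte growth factors favour division and hold back differentiation, while insulin-like growth factors drive both division and, later, differentiation. PDGFRα is best known in muscle as a marker of the interstitial fibro-adipogenic cells and PDGFRβ of pericytes, the cells that wrap small vessels. RNA levels say nothing of how much receptor protein is at the surface or active.

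Columns held 16109055 to 18103769 fragments. In the sample titles both columns of a phase are replicates, numbered 1 and 2, while the column names end in L1 and L2, which could mark lanes; separate cultures are named in no label. The difference within a pair was in size about counting noise (in the order G1, S and G2/M, chi-square over degrees of freedom was 1.00, 1.03 and 1.15, the last 1.04 without the gene model Gm17082). By the chi-square test over all these genes, p was 0.45, 0.011 and 3.1e-28 in the same order. The S and G2/M pairs thus differed slightly more than counting alone gives. Against their titles, the pair was treated as 1 library and summed, on the ground that the difference was small in size. Under that choice no phase difference is given a p-value, and the 95% intervals cover counting error only. Of 8 G2/M phase markers, 8 were higher in G2/M than in G1, while the 8 G1/S phase markers stood lower in the library labelled S than in G1, at 580 against 1475 CPM (counts scaled to library size) in sum, and at 541 CPM in G2/M. Whether the sorted fraction matches the label S cannot be settled from the counts, and S below means the library so labelled. The titles of the S columns also carry a lot mark and the others do not, so that phase and lot cannot be told apart. Of 12 myoblast markers 9 reached 10 CPM, with summed levels of 1093 to 1105 CPM in the 3 libraries. Within that sum single markers moved both ways. In S against G1, 4 were higher and 5 lower, and Six4 passed 2-fold (72.1 against 34.5 CPM). Myod1, with 6.64, 6.08 and 5.73 CPM in G1, S and G2/M, Pax7 and Musk did not reach 10 CPM. Among markers of other cells, 4 of 5 for adipocytes, 3 of 5 for endothelium, 5 of 6 for blood and 5 of 6 for epithelium were at 0 in every library. The remaining markers summed to at most 1.90, 1.09 and 5.27 CPM for adipocytes, endothelium and blood, while the keratin Krt14, the remaining epithelial marker, had 326, 285 and 233 CPM in G1, S and G2/M; its part in the results was not tested. Less RNA per cell and fewer cells that hold a transcript cannot be told apart in bulk samples.

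Levels of 6 receptors allowed comparison between phases, and 3 genes were near or below detection in at least 2 libraries. Igf1r and Insr were lowest in G1 and highest in G2/M. Fgfr1 and Pdgfrb ran the other way, Met stayed within a narrow range, and Egfr was lowest in S. Pdgfra and Fgfr4 had fragments almost only in the S library. Fgfr2 had 3 fragments in all.

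**Figure D1:**
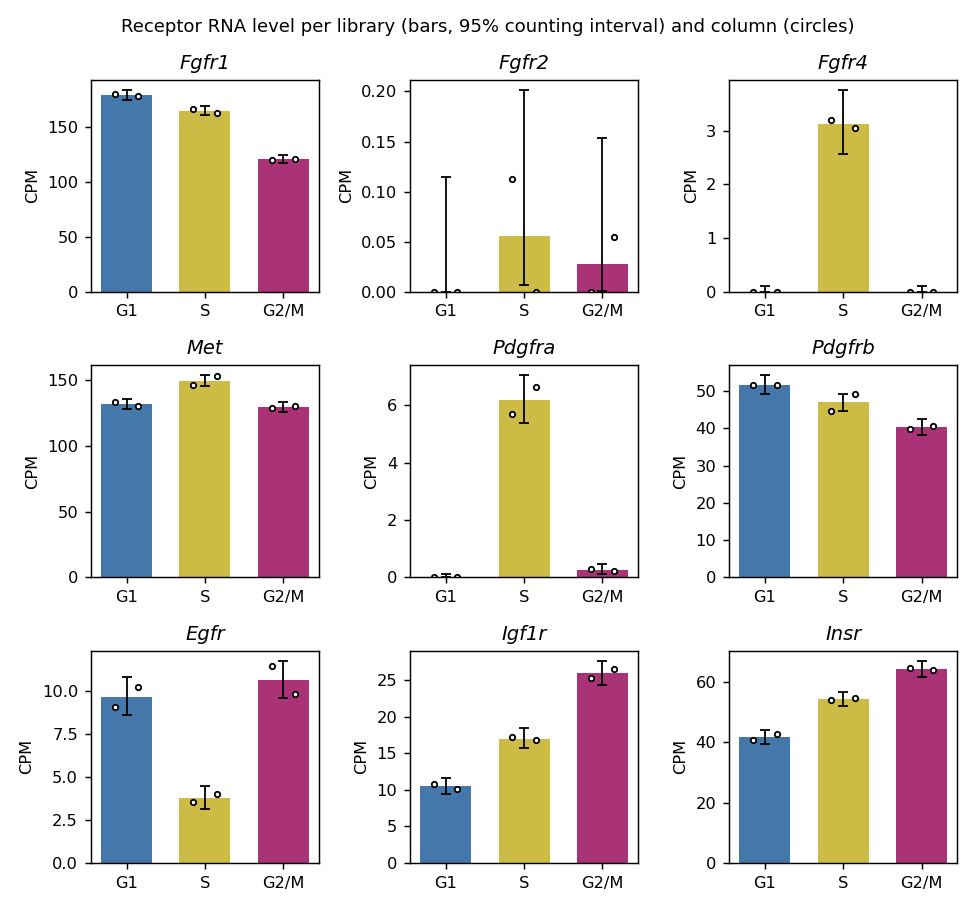
RNA level of each receptor in the G1, S and G2/M libraries, in CPM (each panel has its own scale from 0). Bars are the summed library with its exact 95% Poisson interval, and circles are the 2 columns; Igf1r runs from 10.4 to 17.0 to 25.9 CPM, while Egfr is lowest in S, at 3.77 CPM.

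Levels of different genes were compared per kilobase of exon, as FPKM (CPM divided by kilobases of exon). Fgfr1, the main receptor for fibroblast growth factors here, led in G1 with 22.1 FPKM, followed by Met with 17.2, Pdgfrb with 9.44, Insr with 4.34, Igf1r with 2.33 and Egfr with 0.854. None of the neighbours in that order had overlapping counting intervals. In S, Fgfr1 with 20.3 FPKM and Met with 19.5 did overlap, and Pdgfrb (8.59), Insr (5.64) and Igf1r (3.79) followed without overlap. In G2/M the order of the leading pair turned, with Met at 16.9 FPKM and Fgfr1 at 14.8, and the next 3 drew close together, at 7.37 for Pdgfrb, 6.68 for Insr and 5.77 for Igf1r, still without overlap.

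In G1, S and G2/M the 9 genes summed to 56.2, 59.7 and 52.5 FPKM. Within that sum, Fgfr1 took 39.3%, 34.0% and 28.3%, while Igf1r took 4.14%, 6.35% and 11% and Insr 7.72%, 9.46% and 12.7%. Met kept 30.6%, 32.7% and 32.1%. Scaled as TPM, to the sum of per-length levels over all genes, the receptors summed to 152, 184 and 167, so the order of G1 and G2/M in the sum depends on the scale.

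Genes that reached 10 CPM in either of 2 phases were compared, and a difference of 2-fold or more was counted. Between S and G1, 5 receptors could be compared and none passed 2-fold in either direction. Of all 8773 genes compared, 8.63% passed 2-fold upward in S and 8.59% downward. In the step from S to G2/M, 6 could be compared; 1 was higher (Egfr) and none lower, against 7.12% higher and 6.6% lower of all 8752 genes. For G2/M against G1, 6 could be compared; 1 was higher (Igf1r) and none lower, against 10% higher and 9.81% lower of all 8850 genes. The median log2 ratio of the receptors compared was 0.18, 0.02 and 0.06 in the 3 comparisons, and that of all genes -0.01, 0.01 and -0.00. With so few receptors compared, a count of 0 or 1 is near what these shares of all genes give. The 3 comparisons share their libraries pair by pair and are not separate evidence.

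On the TPM scale every log2 ratio moves up by 0.19 in S against G1, 0.04 in G2/M against S and 0.24 in G2/M against G1. The share of 2-fold calls that are higher then goes from 50.1% to 66.5% in S against G1 and from 50.6% to 69.2% in G2/M against G1. Ratios also moved with exon length: the median log2 ratio of S to G1 was -0.21 in the first of 4 equal groups by exon length, the shortest, and 0.22 in the longest, and that of G2/M to G1 was -0.13 and 0.13. Fgfr1, Met, Egfr, Insr, Pdgfra and Fgfr2 are in the longest group, Pdgfrb and Igf1r in the third and Fgfr4 in the second.

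**Figure D2:**
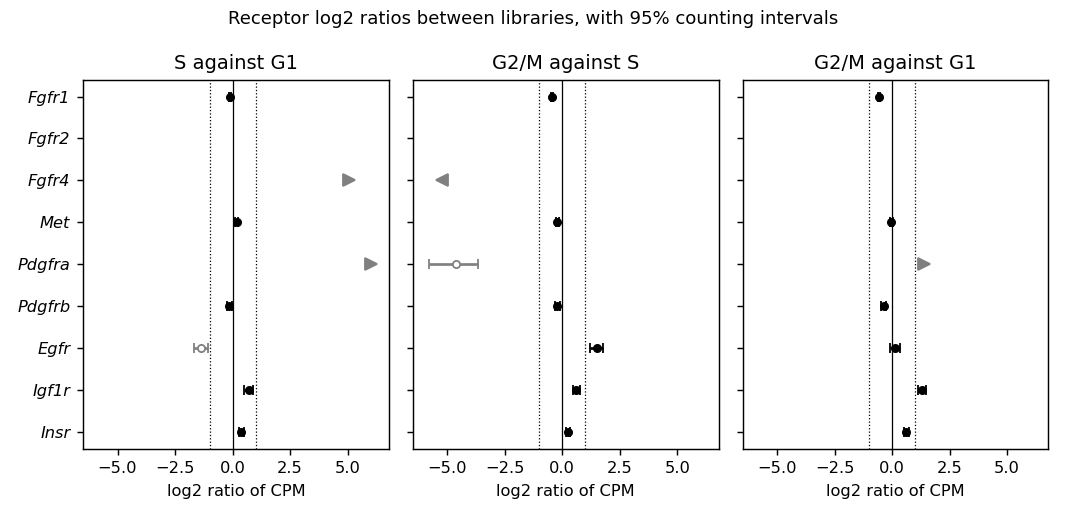
Log2 ratio of CPM between libraries for each receptor, with exact 95% counting intervals (filled points, at least 10 CPM in 1 of the 2 libraries; open points, below that; triangles, a count of 0 set to 3 fragments; dotted lines, 2-fold). Fgfr2 has no ratio, and only Egfr in G2/M against S and Igf1r in G2/M against G1 lie past 2-fold with filled points.

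Promoter sequence was available from RefSeq (GRCm38.p6) for 6 of the 9 genes: Fgfr2, Fgfr4, Met, Pdgfra, Egfr and Igf1r. The 250 bases before the start site are shown for the receptors past 2-fold, Igf1r and Egfr, and for the pair found in S, Pdgfra and Fgfr4. Each is written 5′ to 3′ on the gene's own strand, with matches in capitals, for Igf1r chr7:67952007-67952256, Egfr chr11:16751953-16752202, Pdgfra chr5:75152001-75152250 and Fgfr4 chr13:55152568-55152817, all on the plus strand.
Igf1r: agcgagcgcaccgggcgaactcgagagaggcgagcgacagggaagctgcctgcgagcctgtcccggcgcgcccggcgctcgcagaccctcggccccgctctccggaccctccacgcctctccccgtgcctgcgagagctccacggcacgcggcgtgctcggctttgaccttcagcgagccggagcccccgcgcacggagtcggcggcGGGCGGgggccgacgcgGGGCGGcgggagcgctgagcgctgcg
Egfr: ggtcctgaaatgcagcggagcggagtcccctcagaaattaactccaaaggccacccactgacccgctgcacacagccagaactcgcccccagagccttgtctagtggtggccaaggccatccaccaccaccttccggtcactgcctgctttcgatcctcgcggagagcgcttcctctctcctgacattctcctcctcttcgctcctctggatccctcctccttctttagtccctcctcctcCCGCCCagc
Pdgfra: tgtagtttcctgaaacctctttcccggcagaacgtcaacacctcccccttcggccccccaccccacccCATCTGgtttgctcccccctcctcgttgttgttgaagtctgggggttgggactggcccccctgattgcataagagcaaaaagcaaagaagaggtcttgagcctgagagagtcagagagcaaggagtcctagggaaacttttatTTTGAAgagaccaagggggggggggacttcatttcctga
Fgfr4: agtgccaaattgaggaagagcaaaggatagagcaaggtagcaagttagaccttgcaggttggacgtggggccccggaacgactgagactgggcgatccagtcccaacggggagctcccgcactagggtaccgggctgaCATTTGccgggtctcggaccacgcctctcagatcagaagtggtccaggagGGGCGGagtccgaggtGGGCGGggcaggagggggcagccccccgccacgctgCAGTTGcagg
The motifs searched, on both strands, were the E-box CANNTG bound by MyoD and other helix-loop-helix factors, its form CAGCTG, which is counted within the E-box too, the cell cycle homology region TTTGAA, the E2F-type site TTTNNCGC, CCAAT, the GC box GGGCGG and the TATA box TATAAA. Igf1r had 2 GC boxes, starting 43 and 26 bases before the start site, and none of the other motifs, in a window of 77.6% G and C against a median of 52.4% over all 32817 promoters. Egfr had 1 GC box, on the minus strand within 9 bases of the start site, and likewise none of the others. Pdgfra had the E-box CATCTG and 1 TTTGAA match, and Fgfr4 had the E-boxes CATTTG and CAGTTG with 2 GC boxes, so the pair shares the general E-box and no other motif searched. Met, not printed, had the E-box CACGTG and 3 GC boxes, and Fgfr2 the E-box CAACTG in a window whose start site lies 2856542 bases from the end of the deposited model where its transcription would begin. None of the 6 held a CCAAT match, a TATA box, the E2F-type site or the CAGCTG form of the E-box. Over all promoters of this length 66.2% held an E-box, 13.0% CAGCTG, 16.0% TTTGAA, 33.8% CCAAT, 32.7% a GC box, 12.4% TATAAA and 4.28% the E2F-type site. The deposited Igf1r model starts 602 bases after the RefSeq start site, that of Pdgfra 41 bases after, and that of Egfr at the same base. Those of Fgfr4 and Met start 178 and 157 bases before their RefSeq start sites. All Fgfr4 matches thus lie within the deposited model and not before it. The same holds for the Met matches, except the GC box farthest from the start site. A match describes letters and not a bound site.

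Igf1r, the receptor that binds IGF1 and IGF2, showed the largest ratio between G1 and G2/M among the 6 receptors compared, and has the promoter window rich in G and C printed with its 2 GC boxes in capitals. It is ENSMUSG00000005533 on chromosome 7 from 67952859 to 68226780 in GRCm38, on the plus strand. The G1 columns held 172 and 163 fragments, those of S 307 and 302, and those of G2/M 454 and 485. The 3 pairs did not overlap, and both columns of a phase gave the same order. In G2/M its level was 25.9 CPM against 10.4 CPM in G1, 2.48-fold higher (log2 1.31, interval 1.13 to 1.49). The step from G1 to S was 1.63-fold (log2 0.70, interval 0.51 to 0.90) and that from S to G2/M 1.52-fold (log2 0.61, interval 0.46 to 0.76). At this level such ratios are common: 43.8% of the 2555 genes with a mean of 5 to 20 CPM in G1 and G2/M differed at least 2-fold, and 68.2% of them differed by less than Igf1r did. Leaving out any column kept its log2 ratio of G2/M to G1 between 1.26 and 1.36.

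Insr, the insulin receptor, is the closest relative of Igf1r and pairs with it in hybrid receptors. It is ENSMUSG00000005534, on the minus strand of chromosome 8 from 3150922 to 3279617. In G1 its columns held 651 and 689 fragments, followed by 961 and 987 for S and 1161 and 1172 for G2/M, again in separate ranges and in the same order as Igf1r. Each step was upward and under 2-fold, from 41.8 CPM to 54.4 and 64.3 CPM. In G2/M it was 1.54-fold above G1 (log2 0.62, interval 0.52 to 0.72), and 72.6% of the genes with a mean of 50 to 100 CPM differed by less. The log2 ratio of S to G1 was 0.38 (interval 0.28 to 0.48), beside the median of 0.22 for genes of like exon length.

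Fgfr1 is ENSMUSG00000031565, on chromosome 8 from 25513654 to 25575714 on the plus strand. G1 gave 2878 and 2869 fragments, S 2967 and 2943, and G2/M 2165 and 2206. The S library was deeper than the G1 library, and after scaling G1 stood at 179 CPM, S at 165 and G2/M at 121. Both G2/M columns lay below all 4 others on the CPM scale, at 120.4 and 120.6 against a lowest value of 163 CPM elsewhere. In G2/M Fgfr1 was 1.49-fold lower than in G1 (log2 -0.57, interval -0.63 to -0.52), or -0.34 on the TPM scale. Of the 1957 genes with a mean of 100 to 500 CPM, 80.4% differed by less and 4.34% by 2-fold or more. Most of that difference lay between S and G2/M (log2 -0.45, interval -0.51 to -0.40), whereas the ratio of S to G1 was -0.12 (interval -0.17 to -0.07) and turned to 0.07 on the TPM scale.

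Met, whose ligand hepatocyte growth factor wakes resting muscle stem cells, is ENSMUSG00000009376 on chromosome 6 from 17463800 to 17573980, plus strand. G1 gave 2130 and 2098 fragments, S 2598 and 2765, and G2/M 2313 and 2387. The levels were 132, 149.7 and 129.6 CPM, highest in S. The ratio of S to G1 was 1.13-fold (log2 0.18, interval 0.12 to 0.24), close to the median of 0.22 for genes with long exons. The log2 ratio of G2/M to G1 was -0.03 and its interval, -0.09 to 0.03, holds 0; on the TPM scale the value was 0.21. Of the genes of its level, 6.08% had a smaller ratio in that comparison.

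Pdgfrb (ENSMUSG00000024620, chromosome 18) gave 826 and 832 fragments in the G1 columns, 797 and 889 in those of S, and 719 and 746 in those of G2/M. The levels were 51.7, 47.0 and 40.4 CPM. The G1 and S columns lay above the G2/M columns, but the S columns spread from 44.8 to 49.3 CPM. G2/M against G1 gave a log2 ratio of -0.36 (interval -0.46 to -0.25), or -0.12 on the TPM scale, and 34.8% of genes of its level differed by less. The ratio of S to G1 was -0.14 (interval -0.24 to -0.04), and 0.06 on the TPM scale.

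Egfr, the receptor for EGF, amphiregulin, epiregulin and HB-EGF, was the one receptor lowest in S. It is ENSMUSG00000020122 on chromosome 11 from 16752203 to 16918158, plus strand. G1 gave 145 and 165 fragments, S 63 and 72, and G2/M 206 and 180. The S columns lay well below the others, and the G1 and G2/M columns overlapped on the CPM scale (9.10 and 10.2 against 11.5 and 9.84). The level in G2/M was 2.82-fold that in S, 10.6 against 3.77 CPM (log2 1.5, interval 1.21 to 1.79). S against G1 gave a log2 ratio of -1.36 (interval -1.66 to -1.06), or 2.57-fold lower, but with 9.67 CPM in G1 the gene missed the minimum of 10 CPM and was not counted. Both calls hang on that minimum: without G1 replicate 1 Egfr counts as lower in S than in G1, and without G2/M replicate 1 it no longer counts as higher in G2/M than in S, though the log2 ratio of G2/M to S stayed between 1.38 and 1.6 whichever column was left out. Among 2605 genes with a mean of 5 to 20 CPM in G2/M and S, 34.9% differed at least 2-fold and 82.6% by less than Egfr.

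**Figure D3:**
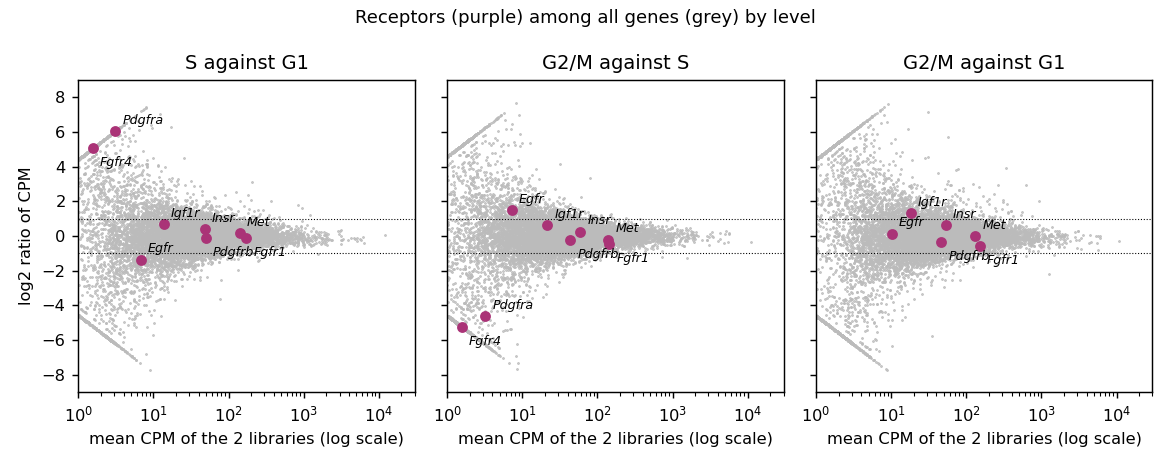
Log2 ratio of CPM against the mean CPM of the 2 libraries compared, on a log axis, for all genes averaging 1 CPM or more (grey) and the receptors (purple); dotted lines mark 2-fold. Ratios spread widely at low level, where Pdgfra, Fgfr4 and Egfr lie, and narrow above 100 CPM, where Fgfr1 and Met lie; the straight grey edges are genes at 0 in 1 library, set to 3 fragments.

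Pdgfra and Fgfr4 had fragments in S and few or none elsewhere. Pdgfra (ENSMUSG00000029231, chromosome 5 from 75152292 to 75198215) had 0 fragments in both G1 columns, against 101 and 120 for S and 5 and 4 for G2/M. That is 6.17 CPM in S, 0.248 CPM in G2/M and a limit of 0.0936 CPM, the level of 3 fragments, in G1. Against that limit S was at least 65.9-fold higher than G1 (log2 6.04; the counting interval reaches down to 5.73, and leaving out G1 replicate 1 or 2 gives 5.05 or 5.04). G2/M was 24.9-fold lower than S (log2 -4.64, interval -5.78 to -3.68). Fgfr4 (ENSMUSG00000005320, chromosome 13 from 55152640 to 55168759), a receptor known from embryonic and regenerating muscle, had 57 and 55 fragments in S, 3.13 CPM, and 0 in all 4 other columns. Against the level of 3 fragments it was at least 33.4-fold higher in S than in G1 (log2 5.06; the interval reaches down to 4.74, and leaving out G1 replicate 1 or 2 gives 4.07 or 4.06). Likewise it was at least 37.8-fold lower in G2/M than in S (log2 -5.24; the interval reaches -4.92, and leaving out G2/M replicate 1 or 2 gives -4.26 or -4.24), 3 fragments being 0.0827 CPM in G2/M. Neither gene reached 10 CPM, so neither was counted, and both rest on 1 library with a lot mark of its own.

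Counts of 0 beside 100 or more fragments were also found in other genes. Of 11277 genes with at least 100 fragments in some library, 870 (7.71%) had 0 fragments in at least 1 other. For S, 115 genes (1.02%) had at least 100 fragments there and 0 in both others, against 105 for G1 and 108 for G2/M. Fgfr4 is among the 115, while Pdgfra, with 9 fragments in G2/M, is not. Between S and G1, 78.5% of the 1927 genes with a mean of 1 to 5 CPM differed at least 2-fold. The 10th and 90th percentiles of their log2 ratios were -5.42 and 5.11, beside 5.06 for Fgfr4 and 6.04 for Pdgfra.

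Fgfr2 (ENSMUSG00000030849), the fibroblast growth factor receptor best known from epithelia, had 2 fragments in 1 S column, 1 in 1 G2/M column and none in G1. These counts are at or under the limit of 3 fragments, and no ratio is given. Its deposited gene model on chromosome 7 spans 2960900 bases and overlaps 44 other models, 23 of them with fragments, so even these 3 fragments are uncertain. The models that overlap Fgfr1, Pdgfra, Egfr and Insr held no fragments, and Met, Fgfr4, Pdgfrb and Igf1r overlap none.

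Other genes of these pathways were taken from 9 lists with 170 genes. For S against G1, 119 of them could be compared, and 8 passed 2-fold upward and 8 downward. The counts were 2 higher and 9 lower of 118 in G2/M against S, and 8 higher and 7 lower of 116 in G2/M against G1. The share higher was 6.72%, 1.69% and 6.90%, and the share lower 6.72%, 7.63% and 6.03%. Of all genes compared, 8.63%, 7.12% and 10% were higher and 8.59%, 6.6% and 9.81% lower. Median log2 ratios of the pathway list genes were 0.04, 0.01 and 0.01. The counts by list below stand beside the same shares of all genes. Most lists hold few genes, and none was tested against these shares.

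**Figure D4:**
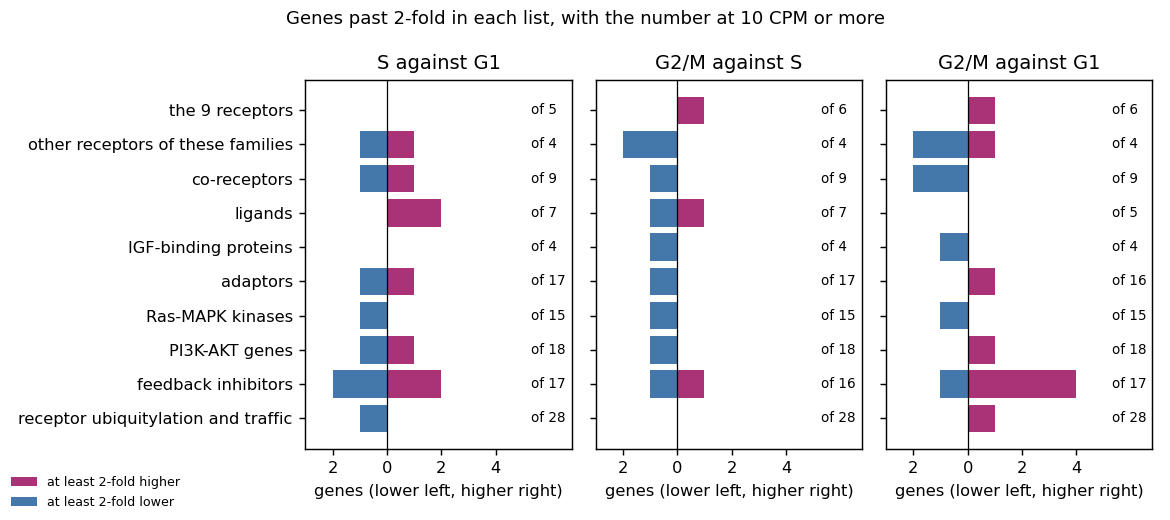
Number of genes at least 2-fold higher (right, purple) or lower (left, blue) in the first library named, for the receptors and 9 pathway lists, with the number at 10 CPM or more at the right of each row. Most lists show 0 to 2 genes on either side. The list of feedback inhibitors has 4 higher of 17 in G2/M against G1, at mean levels under 50 CPM, where 2-fold ratios are more frequent than at higher levels.

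Among 14 other receptors listed, not all of the same families as the members, 7 had no fragment in any library and 4 reached 10 CPM. Igf2r, which carries IGF2 to lysosomes and does not signal as a kinase, had 7.70, 26.0 and 21.7 CPM in G1, S and G2/M, 3.37-fold higher in S than in G1 and 2.82-fold higher in G2/M than in G1. Erbb2, the partner of EGFR that has no ligand of its own, was highest in S, where Egfr was lowest: 23.9, 42.7 and 16.8 CPM in the same order, 2.55-fold lower in G2/M than in S. Fgfrl1, a fibroblast growth factor receptor without a kinase domain, had 27, 20.0 and 3.80 CPM, 7.10-fold lower in G2/M than in G1. Flt1, a receptor for VEGF, had 28.8, 7.67 and 12.2 CPM and was 3.75-fold lower in S than in G1. Of these 4, 1 was higher and 1 lower in S against G1, none higher and 2 lower in G2/M against S (Erbb2 and Fgfrl1), and 1 higher and 2 lower in G2/M against G1 (Igf2r; Fgfrl1 and Flt1).

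Ligands were sparse: 13 of 29 had no fragment in any library, among them Igf1, Ins1 and Ins2, while Igf2 had 3 fragments and Hgf 22, all of the latter in G1. Only 7 reached 10 CPM, 4 of them platelet-derived growth factors. Pdgfa had 36.0, 29.5 and 27.7 CPM in G1, S and G2/M and Pdgfc 77.1, 59.1 and 70.6 CPM. Pdgfb was highest in G2/M, with 17.3, 11.8 and 33.2 CPM, and Pdgfd in S, with 5.86, 23.7 and 5.85 CPM. The ligands of EGFR did not share a pattern: Hbegf had 42.0, 65.0 and 34.5 CPM, Ereg 18.06, 17.3 and 30.0 CPM, and Areg 0.187, 10.5 and 8.74 CPM (6, 375 and 317 fragments). In S against G1, 2 of 7 ligands compared were higher (Pdgfd, 4.04-fold, and Areg, 55.9-fold, with a log2 interval of 4.67 to 7.26) and none lower. In G2/M against S, Pdgfb was 2.81-fold higher and Pdgfd 4.05-fold lower, and in G2/M against G1 none of 5 passed 2-fold.

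Of 14 co-receptors that hold growth factors at the cell surface, 4 had no fragment in any library and 9 reached 10 CPM. Together the listed genes held 2446 to 2737 CPM. Cd44, which presents hepatocyte growth factor to Met, had 436, 664 and 644 CPM. The glypican Gpc1 went the way of Fgfr1, with 874, 629 and 389 CPM, 2.25-fold lower in G2/M than in G1. The syndecan Sdc3 was 4.37-fold lower in G2/M than in G1 (9.37 against 41.0 CPM), Sdc1 2.18-fold lower in S than in G1 (93.9 against 205 CPM), and Gpc6 2.38-fold higher in S than in G1 (24.4 against 10.3 CPM). Of 9 co-receptors compared, 1 was higher and 1 lower in S against G1, none higher and 1 lower in G2/M against S, and none higher and 2 lower in G2/M against G1.

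Of 7 proteins that bind insulin-like growth factors, 4 reached 10 CPM. Igfbp2 had 178, 109 and 184 CPM, Igfbp5, a known product of differentiating C2C12 cells, 74.1, 37.5 and 37.9 CPM, and Igfbp6 43.0, 38.2 and 48.5 CPM. Igfbp7 was 2.59-fold lower in G2/M than in S and 2.36-fold lower than in G1, at 52.0 against 135 and 123 CPM. Igfbp7 was the 1 gene of the 4 past 2-fold, in both comparisons with G2/M.

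Adaptors carry the signal from the receptor. Gab1, the large docking protein of Met, had 15.7, 20.5 and 34.8 CPM, 2.22-fold more in G2/M than in G1, and Gab2 was 3.44-fold higher in S than in G1 (5.58, 19.2 and 6.56 CPM). Sh2b1, which binds the insulin receptor, was 2.37-fold lower in S than in G1 (22.9 against 54.3 CPM). Frs2, the docking protein of fibroblast growth factor receptors, had 71.0, 101 and 123 CPM, Rasa1, a brake on Ras, 72.9, 128 and 113 CPM, and Plcg1 99.6, 69.0 and 57.0 CPM, all under 2-fold. Of the adaptors compared, 1 was higher and 1 lower of 17 in S against G1, none higher and 1 lower of 17 in G2/M against S, and 1 higher and none lower of 16 in G2/M against G1.

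In the Ras-MAPK list, Hras was 2.37-fold lower in S than in G1 (59.7 against 141.7 CPM) and the scaffold Ksr1 2.18-fold lower in G2/M than in G1 (6.40 against 13.9 CPM). These and Ksr1 in G2/M against S were the only genes of 15 past 2-fold. Below that size, Nf1, which switches Ras off, had 56.4, 97.8 and 98.8 CPM. Map2k2 (73.3, 54.0 and 80.8 CPM) and Mapk3 (27.7, 24.0 and 36.4 CPM) were lowest in S.

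In the PI3K-AKT list of 18 genes compared, Pdpk1, the kinase that switches AKT on, was 2.04-fold higher in S than in G1 (188 against 92.1 CPM) and Akt2 2.13-fold lower (49.2 against 105 CPM). Higher in G2/M than in G1 was Rptor, the defining subunit of mTOR complex 1, by 2.25-fold (80.3 against 35.8 CPM). Rictor, its counterpart in mTOR complex 2, was 2.25-fold lower in G2/M than in S (43.0 against 96.7 CPM), with 86.0 CPM in G1. Foxo1, which AKT holds out of the nucleus, had 12.3, 22.7 and 12.9 CPM, and the regulatory subunit Pik3r3 56.2, 39.8 and 72.9 CPM. No other gene of the list passed 2-fold.

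Of 17 genes in the list of feedback inhibitors compared between G2/M and G1, 4 were at least 2-fold higher and 1 lower. These stand beside 10% and 9.81% of all genes. Whether each listed gene, Lrig2 and Lrig3 among them, inhibits receptors in these cells was not tested. Lrig3 was 4.35-fold higher (22.1 against 5.08 CPM), Spry4, which blocks signalling to Ras, 2.69-fold (13.5 against 5.02 CPM), Dusp7, a MAP kinase phosphatase, 2.24-fold (19.9 against 8.89 CPM) and Lrig2 2.21-fold (31.5 against 14.3 CPM). The receptor phosphatase Ptprf was 3.11-fold lower (7.25 against 22.6 CPM). Lrig3, Spry4, Dusp7 and Ptprf averaged 5 to 20 CPM in G1 and G2/M, where 43.8% of genes differed at least 2-fold. Lrig2 averaged 20 to 50 CPM, where 20.4% did. In S against G1, Spry4 and Lrig3 were higher (2.55-fold and 2.59-fold), and Ptprf (2.30-fold) and Ptpn1, which removes phosphate from the insulin receptor, were lower (2.53-fold). In G2/M against S, Lrig2 was 3.04-fold higher and Lrig1, which promotes loss of EGFR, 2.24-fold lower; Spry2 had 68.0, 34.7 and 63.4 CPM in G1, S and G2/M. Dusp7, Lrig2 in G2/M against G1 and Ptprf in S against G1 are named as the remainder of these counts, after their values were seen.

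The list for ubiquitylation and traffic of receptors had 28 genes, all compared. Cbl, the ubiquitin ligase that marks activated receptors for breakdown, ran in the order of Igf1r, with 21.3, 35.9 and 53.6 CPM, or 2.51-fold more in G2/M than in G1. The clathrin adaptor subunit Ap2s1 was 2.43-fold lower in S than in G1 (32.4 against 78.5 CPM). No other gene of the list passed 2-fold in any comparison; Rab5a of early endosomes had 27.8, 23.8 and 44.5 CPM, Dnm2 47.1, 53.0 and 79.9, Hgs 40.5, 40.5 and 25.0, Epn1 61.9, 33.8 and 40.3 and Eps15l1 24.0, 17.8 and 28.4 CPM.

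Genes with the pattern most like each receptor were found from the pair of log2 ratios, S to G1 and G2/M to G1, among 4192 genes whose mean level reached 50 CPM. The distance is the Euclidean distance between these pairs of ratios, over 3 libraries. For Igf1r the nearest were Nup37 (0.0562), a nuclear pore protein, and Cdc23 (0.0688), a subunit of the anaphase-promoting complex, and 4 genes lay within 0.1. For Insr they were Id3 (0.00254), an inhibitor of helix-loop-helix factors, and Smad5 (0.0141), with 56 genes within 0.1. For Fgfr1 they were Aldh2 (0.0194) and Naa50 (0.0246), with 39 within 0.1. Met lay nearest Kmt2a and Myo10 and Pdgfrb nearest Tsc22d3 and Dip2b, among 113 and 118 genes within 0.1. Egfr had no gene within 0.1, and Hspb8 at 0.213 and Cstb at 0.306 were closest. Egfr and Igf1r averaged 8.03 and 17.8 CPM, below all genes searched. Between S and G1, 39.1% of genes at 5 to 20 CPM differed at least 2-fold, against 8.04% at 50 to 100 CPM. The number of near genes is thus no measure of how rare the patterns of Egfr and Igf1r are. For every receptor in this search, the counting intervals of both ratios were also wider than 0.1. The choice of the nearest genes is thus within counting error.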

How the data were processed

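Counts are the authors' deposited fragments per gene, made with featureCounts. Per the file headers, pairs of reads were counted over the exons of each gene in Ensembl's annotation of GRCm38. The header's command names no option for strand or multiply mapping reads. HISAT2 2.1.0, SAMtools 1.6 and featureCounts 1.5.0 are among the tools named per the submitters' processing notes. Trimming and read filters are not given in the sources used here. Symbols were matched for 45143 of 46078 gene identifiers.

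Each column name stands in 1 sample's description, which gave its sample. Chi-square over genes with at least 10 fragments compared the columns of a phase, which were then summed. TMM factors (edgeR 4.0.16, R 4.3.3) over 12971 genes, of 0.990, 1.00 and 1.01 in the G1, S and G2/M libraries, entered the scaling to CPM. FPKM divides CPM by the deposited exon length. Fewer than 3 fragments were set to 3 in ratios, and a ratio against 0 is a bound. Ratios have exact binomial and levels exact Poisson 95% intervals (SciPy 1.17.1); PCR duplicates, which are no separate molecules, and error between cultures stay outside them. A gene was counted at 2-fold with at least 10 CPM in 1 of 2 phases. Scripts were tested on simulated data.

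The members and lists were chosen with earlier results of these data known. Named were all 9 receptors, at most 3 measured genes per list and comparison with the largest log2 ratio, all other receptors and ligands at 10 CPM, and the 2 genes nearest in pattern. A gene that this rule names is not reported here. Alternatives were other scaling (library size, DESeq2 1.42.0 size factors), filters, folds, 1 CPM added to levels, columns left out, and TPM, which was added for ratios after seeing the data.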

Additional observations from a re-analysis of the deposited data

How the results depend on the processing

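No paired analysis was possible because the columns titled replicates 1 and 2 of a phase were summed to 1 library, by choice and against their titles. No phase difference comes from a test. The counts of receptors, pathway genes and all genes past 2-fold were within 1.5 times of those reported under library size alone, DESeq2 size factors and 1 CPM added to both levels. Without the filter on low counts, receptors at least 2-fold higher and lower numbered 2 and 1 in S against G1 (Pdgfra and Fgfr4; Egfr), 2 were lower in G2/M against S (Pdgfra and Fgfr4), and 2 higher in G2/M against G1 (Igf1r and Pdgfra). In the order S against G1, G2/M against S and G2/M against G1, pathway genes then numbered 13, 11 and 17 higher and 16, 16 and 15 lower, and all genes 2407, 1789 and 2223 higher and 2004, 2245 and 2295 lower. With a mean of at least 50 CPM, which Egfr and Igf1r do not reach, 0 receptors were higher in G2/M against S and 0 in G2/M against G1; pathway genes numbered 1, 0 and 1 higher and 4, 2 and 2 lower, and all genes 129, 40 and 160 higher and 91, 58 and 114 lower. At 1.5-fold, 1, 2 and 2 receptors were higher, pathway genes numbered 26, 17 and 23 higher and 16, 17 and 18 lower, and all genes 1625, 1408 and 1786 higher and 1609, 1349 and 1735 lower. The genes compared at 1.5-fold were those compared at 2-fold. These were 5, 6 and 6 receptors, 119, 118 and 116 pathway genes, and 8773, 8752 and 8850 of all genes. Under the changed filters the number compared differs and is not given, so those counts yield no shares.

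Leaving out 1 column gave 0 to 1 receptors lower in S against G1 and 0 to 1 higher in G2/M against S, both through Egfr, which lies at the minimum of 10 CPM. Receptor levels in G1, S and G2/M summed to 151.7, 183.9 and 167.0 as TPM. Adding 1 CPM to both levels brought the log2 ratios of S to G1 for Pdgfra and Fgfr4 down to 2.84 and 2.04. With 1 library per phase, depth limits statements on Fgfr2 and on Pdgfra and Fgfr4 outside S, and differences between cultures were not measured.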
